A study of Penicillium oxalicum with 6 samples.

Results

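Among 9822 locus tags of the filamentous fungus Penicillium oxalicum, 73 gave transcripts that were both abundant and steady across the 6 libraries of the series. A tag was taken as a member when it had at least 300 FPKM (sequenced fragments scaled to transcript length and to the size of the library) in each library and its highest value was at most 1.5 times its lowest. These values are the ones measured here, so the levels, the narrow ranges and any difference between the strains are descriptions of the chosen set and carry no test. The 3 parental libraries came from mycelium of the strain lacking PoxKu70, although their genotype field reads WT. The 3 silenced libraries came from the same background with POc04478 silenced after copper ions at 5 μM had been added, and whether parental cultures were also given copper is not stated. All spores came from plates kept at 28 °C for 4 days, and all cultures spent 24 h in glucose medium and 24 h in a medium for enzyme production. The protocol names Avicel, a cellulose, as its carbon source, while the treatment field names raw starch. The titles number the replicates 1 to 3 in each strain without saying whether they were separate cultures, so the spread between libraries may be partly technical. The labels give no clone number for the silenced strain and no second silenced line.

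P. oxalicum secretes enzymes that break down cellulose and other plant polysaccharides, and Ku70 is one subunit of the protein that starts non-homologous end joining. Fungal strains lacking it are widely used as parents because introduced DNA then inserts mainly by homologous recombination. FPKM is a relative unit, in which a large gain or loss in a few abundant transcripts shifts the values of all other transcripts of that library. Transcripts that stay level are therefore used as internal references, in the way that reference genes are used in quantitative PCR. Neither the files nor the reference table give product names, so no function is assigned to any locus tag here. In bulk mycelium, fewer cells of a kind and less RNA per cell cannot be told apart.

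The silenced gene itself, matched by number and chromosome letter to POX_c04478, had 159, 116 and 131 FPKM in the parental libraries, given here and below in the order of their replicate numbers, and 15.9, 17.8 and 19.0 FPKM in the silenced ones. Every silenced value lay far below every parental value. The summed FPKM of a library was 1241130 to 1327340, its 10 highest IDs took 11% to 19.0% of that sum, and 9737 to 9937 of the 10899 IDs were above 0. The files hold no counts. Relative depth was estimated from the steps that whole fragments leave in the lowest values. It was 1 to 1.58 times that of parental replicate 1, the shallowest library by this estimate. Only 455 of 5378 ratios of low values lay on the fitted steps, so the estimate is rough.

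Abundance alone did not make a transcript steady. Of the 368 locus tags with at least 300 FPKM in every library, 73 (19.8%) kept the 1.5-fold range and 295 did not. More of the tags exceeded this range within the parental libraries than within the silenced ones. Within the 3 parental libraries 199 of the 368 tags kept a 1.5-fold range, whereas within the 3 silenced libraries 348 did, and 192 did so in both strains. Of the 295 tags outside the range, 156 exceeded it among the parental libraries alone, 7 among the silenced libraries alone and 13 in each strain. The remaining 119 kept the range within either strain but not across all 6 libraries. Silenced group means were higher in 66 of these and lower in 53. These counts do not separate the spread within a strain from a strain difference. In 212 of the 295 tags (71.9%) the strains did not overlap, against 65.9% of the tested IDs. The median range of the 368 tags, highest over lowest, was 1.47 in the parental and 1.14 in the silenced libraries, and 339 of them were narrower in the silenced strain. The 73 members had the same asymmetry, with median ranges of 1.28 and 1.09 and 69 members narrower in the silenced strain. Of the 12 IDs without a locus tag that had at least 300 FPKM in every library, 0 kept the range.

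**Figure D1:**
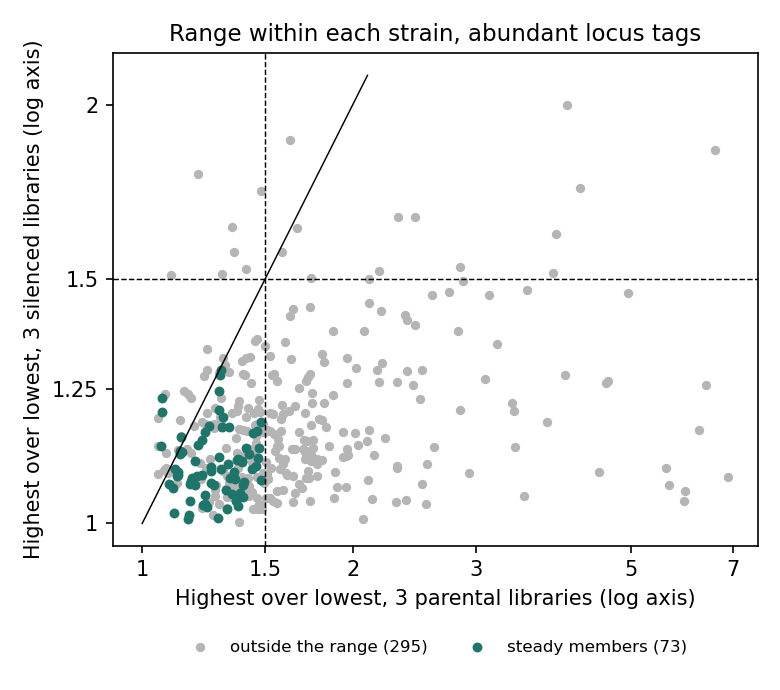
Highest over lowest FPKM among the 3 parental libraries (horizontal, log axis) against the same ratio among the 3 silenced libraries (vertical, log axis) for the 368 abundant locus tags, with dashed lines at 1.5 and a solid line of equal ranges. Most points lie right of the solid line: 156 tags exceeded 1.5 among the parental libraries alone and 7 among the silenced libraries alone.

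The width of the parental spread rested largely on 1 library. Between parental replicates 2 and 3 the typical member differed 1.12-fold (median of the absolute difference), and parental replicate 1 differed from them 1.18-fold and 1.17-fold. For the 295 abundant tags outside the range, the same figures were 1.19-fold for replicates 2 and 3, and 1.42-fold and 1.41-fold with replicate 1. Pairs of silenced libraries differed 1.05-fold to 1.06-fold for the members and 1.06-fold to 1.13-fold for the 295 other tags. For these abundant tags, even the closest parental pair was thus wider apart than any silenced pair. Over all tested locus tags this did not hold. There, parental replicates 2 and 3 differed 1.15-fold, and silenced replicates 1 and 3 differed 1.19-fold. Between the strains, members differed 1.10-fold to 1.19-fold and the 295 others 1.60-fold to 1.91-fold.

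The steady range became a little rarer at high levels. Among locus tags above 0 in all libraries, 16.4% of the 2241 tags with a mean of 10 to 30 FPKM kept a 1.5-fold range. The share was 18.8% of 2663 tags at 30 to 100 FPKM, 14.5% of 1320 at 100 to 300, 12.5% of 472 at 300 to 1000 and 10.8% of 203 at 1000 FPKM or more. Over the same classes the median parental range was 1.38, 1.36, 1.47, 1.55 and 1.61, and the median silenced range was 1.23, 1.19, 1.16, 1.17 and 1.15. The parental spread was therefore wider at high levels than at 10 to 100 FPKM, while the silenced spread was narrower.

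The 73 members covered a wide span of levels. Their means over 6 libraries ran from 349 to 3642 FPKM with a median of 688, and 22 lay above 1000 FPKM, 29 between 500 and 1000 and 22 below 500. They were not the very top of the transcriptome. Ranked among the 9822 locus tags, the best rank reached by any member in any library was 23 and the worst 662, and 5 members stayed within the first 100 in all 6 libraries. The median member moved over 97 ranks between its best and its worst library. Together the members took 5.23% to 5.61% of the summed FPKM of a library.

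The most abundant member was POX_c03700 on chromosome III, with 3940, 3278 and 3360 FPKM in the parental and 3462, 3867 and 3942 FPKM in the silenced libraries. It ranked between 23 and 35 in every library, and its highest value was 1.2 times its lowest. POX_d05848 on chromosome IV came close in level and range, with 3147, 2807 and 3175 FPKM in the parental and 2636, 2670 and 2958 FPKM in the silenced libraries. For both of these genes the strains overlapped. POX_b02615 had 2919, 2400 and 2787 FPKM in the parental and 3199, 3256 and 3463 FPKM in the silenced libraries, a range of 1.44 with every silenced value above every parental value. POX_e06723 had its lowest value in parental replicate 1, at 2176 FPKM, against 3159 and 3176 FPKM in the other parental libraries and 2412, 2670 and 2293 FPKM in the silenced libraries. Its 2 highest and its single lowest value thus all came from the parental strain.

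In some of the 10 most abundant members the strains stood apart. POX_a01262 had 2604, 3181 and 2796 FPKM in the parental and 2345, 2415 and 2402 FPKM in the silenced libraries, a range of 1.36. POX_e06396 had 2447, 2311 and 2173 FPKM in the parental and 1720, 1862 and 1723 FPKM in the silenced libraries, and its silenced mean was 23.5% lower. POX_b03158 had 2443, 2177 and 2086 FPKM against 1640, 1668 and 1702 FPKM, with a silenced mean 25.3% lower and the widest range of all members, 1.49. In these 3 genes and in POX_b02615 the strains did not overlap, and in the other 6 of the 10 they did. The strains did not overlap in 30.1% of all 73 members and in 65.9% of the tested IDs. POX_g09151, with 2081, 1634 and 1547 FPKM against 1709, 1759 and 1793 FPKM, had almost equal strain means of 1754 ± 287 and 1754 ± 42.4 FPKM (SD, n = 3). Its whole range of 1.35 came from the parental libraries. POX_h09482 (1966, 1847 and 1518 FPKM against 1946, 1733 and 1510 FPKM) and POX_b03132 (2057, 1654 and 1393 FPKM against 1786, 1876 and 1586 FPKM) varied as much within a strain as between strains.

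**Figure D2:**
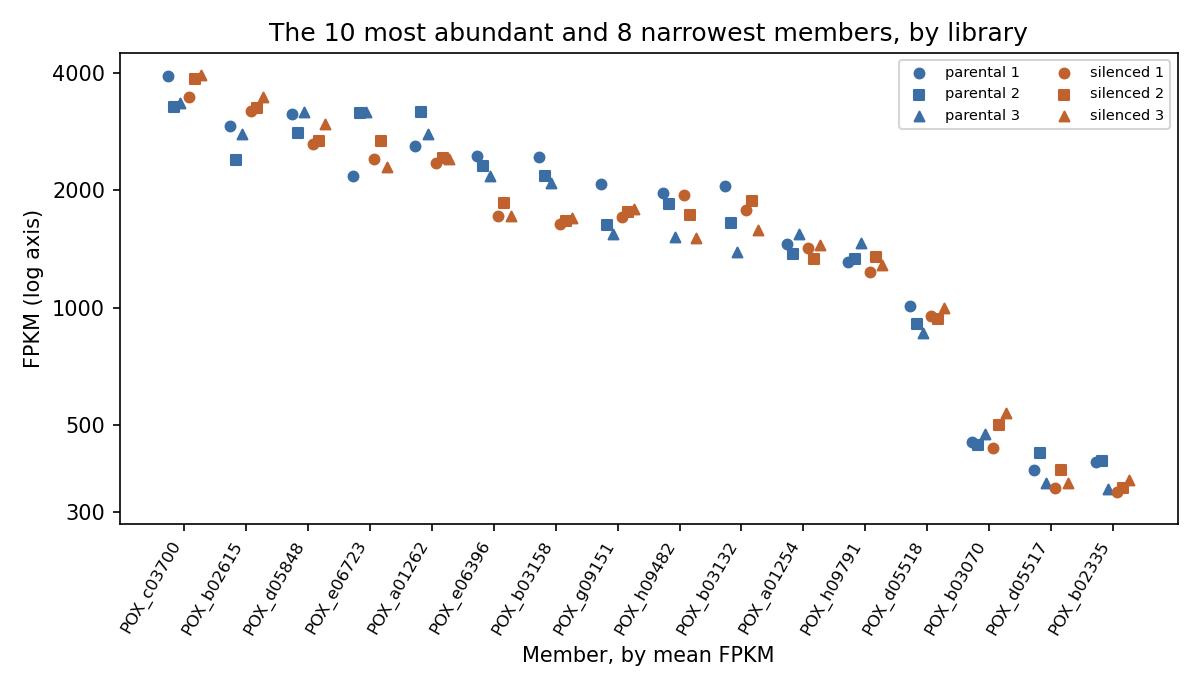
FPKM (log axis) in each of the 6 libraries for 16 members, ordered by mean level: the 10 most abundant and the 8 with the narrowest range, of which 2 are in both lists. Blue marks are parental and orange marks silenced libraries; in POX_e06396 and POX_b03158 all blue marks lie above all orange marks, whereas in POX_a01254 they mix between 1334 and 1549 FPKM.

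By highest over lowest value, 8 members had the narrowest range. POX_a01254 was first, with 1460, 1378 and 1549 FPKM in the parental and 1423, 1334 and 1452 FPKM in the silenced libraries, a range of 1.16 and a coefficient of variation of 5.17%. POX_d05518 followed at 1010, 910 and 864 FPKM against 952, 937 and 1000 FPKM, a range of 1.17. POX_h09791 had 1315, 1334 and 1466 FPKM against 1234, 1350 and 1284 FPKM, a range of 1.19. At lower levels, POX_b02335 had 404, 404 and 343 FPKM against 337, 346 and 363 FPKM, and POX_d05517 had 383, 424 and 357 FPKM against 346, 384 and 356 FPKM. POX_b03070 had 453, 444 and 474 FPKM against 438, 501 and 538 FPKM, with its highest value in silenced replicate 3. Together with POX_c03700 and POX_d05848 these genes make up the 8, and in all 8 the strains overlapped. The strains did not overlap in 65.9% of the tested IDs, but the choice of narrow ranges favours overlap. Silenced means of the 8 were 4.07% to 9.47% lower in 5 and 3.77% to 7.70% higher in 3.

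A ratio of 2 transcripts within a library does not depend on how the library was scaled. Over the 28 pairs of these 8 genes, the highest ratio was 1.15 to 1.44 times the lowest, with a median of 1.31. The 8 were chosen for narrow ranges in these same libraries, so the ranges of their ratios were bounded by the choice. POX_c03700 over POX_d05518 was the tightest pair by range, at 3.9, 3.6 and 3.89 in the parental and 3.64, 4.13 and 3.94 in the silenced libraries. POX_a01254 over POX_d05848 had the smallest SD of the log2 ratio, 0.071, with ratios of 0.464, 0.491 and 0.488 in the parental and 0.540, 0.499 and 0.491 in the silenced libraries. In both pairs the ratios of the 2 strains overlapped. When each member was instead scored by the mean SD of its log2 ratio to the 72 others, the scores ran from 0.170 to 0.304. POX_e07020 came first by this score and POX_d05518 second. POX_e07020 stood at place 11 by range, because its value in parental replicate 1, 879 FPKM, stood above the 701 to 752 FPKM of the other libraries. POX_e06723 came last.

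Toward the limits, the choice of members was gradual. Just inside the 1.5-fold limit were POX_b03158, POX_e06184 and POX_f07456, with ranges of 1.49, 1.49 and 1.48, and just outside it were POX_a00486, POX_h09769 and POX_e06581, with 1.501, 1.504 and 1.51. All 6 had lower silenced means, with log2 ratios of group means between -0.42 and -0.34. POX_a00486 had 3577 to 5371 FPKM and would otherwise be the most abundant member. Just inside the level limit, POX_a00046, POX_f07660 and POX_h09449 had lowest values of 301, 304 and 309 FPKM. Just below it, POX_a01907, POX_c04007 and POX_a00899 kept the range with lowest values of 298, 289 and 278 FPKM.

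By the rule, differences between the strains were bounded. Silenced means were lower in 45 members and higher in 28, within 5% of the parental mean in 15 and within 10% in 35, and they differed by more than 20% in 14. The median log2 ratio of silenced to parental group means was -0.072, a silenced level 4.86% lower, with an SD over the members of 0.20. In limma, fitted over all 9341 tested IDs on log2(FPKM + 1), 0 of the 73 members passed an adjusted p under 0.05, where 54.8% of the tested IDs did. At an unadjusted p under 0.05 there were 7, against 60.5% of the tested IDs. A filter at a mean of 5 FPKM gave 1 lower call, where 31% of the tested IDs were called lower, and a fit with no variance trend gave 2, where 30.3% were. The strains did not overlap in 22 members, against 65.9% of the tested IDs. Of these, 9 had higher silenced values, against 29.2%, and 13 lower, against 36.6%. The rule used this contrast, so these counts are its outcome. The typical standard error of a member's log2 fold change was 0.16, so the 95% interval of 1 member reached 0.38 to each side and a missed call does not show equal levels.

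At the extremes, 5 members had the highest silenced share and 5 the lowest. POX_d05468 had 409, 360 and 369 FPKM in the parental and 443, 490 and 510 FPKM in the silenced libraries, 26.7% higher in the silenced mean and with no overlap. POX_b02548 had 524, 505 and 441 FPKM against 634, 615 and 595 FPKM, and POX_e06277 had 537, 522 and 555 FPKM against 684, 707 and 621 FPKM. POX_e07041 had 574, 545 and 594 FPKM against 683, 682 and 728 FPKM, and POX_b02615, described above, completes the 5. All of these had log2 fold changes of 0.29 to 0.34 with standard errors of 0.13 to 0.18. On the other side, POX_f07456 had 1062, 872 and 1014 FPKM against 716, 745 and 822 FPKM. POX_g09025 had 1097, 992 and 788 FPKM against 764, 741 and 774 FPKM, and POX_e06184 had 1073, 910 and 783 FPKM against 727, 721 and 742 FPKM. With POX_b03158 and POX_e06396 these had log2 fold changes of -0.42 to -0.32. In all 10 the strains stood apart, by a margin as small as 14 FPKM in POX_g09025. Their choice by strain ratio favours this, and the strains also stood apart in 65.9% of the tested IDs.

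**Figure D3:**
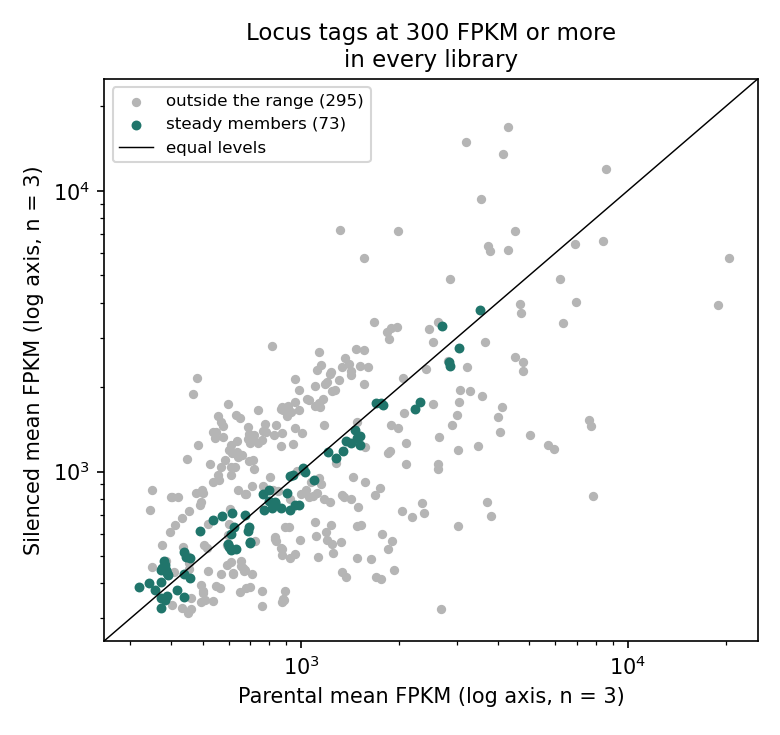
Mean FPKM of the 3 parental libraries (horizontal, log axis) against that of the 3 silenced libraries (vertical, log axis) for the 368 locus tags with at least 300 FPKM in every library, with a line of equal levels. The 73 members (green) lie along the line because of how they were chosen, and the 295 other tags (grey) lie up to several-fold away on both sides.

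Library by library, the members were not quite level. Each member was set against its own mean log2 value over the 6 libraries. The median deviation was 0.12 in parental replicate 1, or 8.53% above, and -0.050 and -0.043 in parental replicates 2 and 3. It was -0.031, 0.0041 and -0.019 in the silenced libraries. Parental replicate 1 held the highest of the 6 values in 34 members, and the other libraries held it in 5 to 11. It held the lowest value in 10 members, while parental replicates 2 and 3 held it in 22 and 13 and the silenced libraries in 15, 7 and 6. The SD of the deviations was 0.20, 0.18 and 0.15 in the parental libraries and 0.12, 0.12 and 0.12 in the silenced libraries. Parental replicate 1 also had the highest summed FPKM and the highest share in its 10 top IDs, 19.0%. The part of either in its higher member values was not tested.

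The rule was also read in a library that it had not used. Members were chosen on 5 libraries and then looked up in the sixth. The tags that kept the range there are by definition the same 73 members each time, so only the number chosen varies. Chosen without silenced replicate 2, all 73 tags kept the range there. Without silenced replicates 3 and 1, 94.8% of 77 and 90.1% of 81 tags kept it, and without parental replicates 2 and 3, 83.9% of 87 and 80.2% of 91. Parental replicate 1 kept only 57.0% of the 128 tags chosen on the other 5 libraries. In it 31 tags lay above the range and 24 below, 17 were under 300 FPKM, and for 20 tags the full range over 6 libraries passed 2-fold. The held-out median against the other 5 libraries was 0.16 (log2) in parental replicate 1, 12.1% higher, and between -0.089 and 0.0049 in the other 5 libraries.

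**Figure D4:**
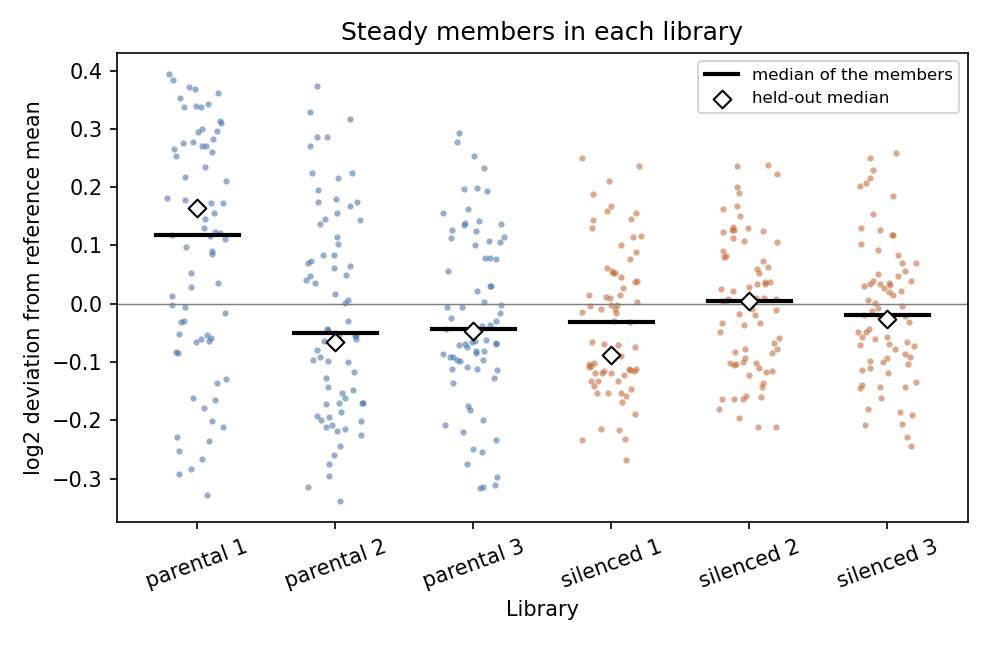
log2 deviation of each of the 73 members from its own mean over the 6 libraries (points), with the median per library (bars), in blue for parental and orange for silenced libraries. Diamonds give the median, against the other 5 libraries, of the tags chosen without that library: 0.16 in parental replicate 1 and -0.089 to 0.0049 elsewhere.

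The 55 tags that parental replicate 1 removed included strong single departures. These were picked after their values were seen. POX_a00756 had 2901 FPKM in parental replicate 1 against 764 and 811 FPKM in parental replicates 2 and 3 and 673, 771 and 796 FPKM in the silenced libraries, 3.81 times the geometric mean of those 5. POX_a01812 had 1144 FPKM there against 383 to 527 FPKM elsewhere. In the other direction, POX_c03511 had 111 FPKM there against 599 and 475 FPKM in the parental and 434, 443 and 435 FPKM in the silenced libraries. POX_e06519 had 119 FPKM there, where the other libraries had 413 to 599 FPKM. Each of these transcripts kept within 1.5-fold over the 5 other libraries of both strains, as their choice required.

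In the same way, the rule was applied to one strain alone and read in the other. In the parental libraries alone 279 tags met both limits, and 68.8% of them also met both in the silenced libraries. The group means of these 279 differed by no more than 1.5-fold in 44.1%, with 18 more than 2-fold higher and 64 more than 2-fold lower in the silenced strain. The silenced libraries alone gave 577 tags, of which 33.3% met both limits in the parental libraries. For 35.0% of them the group means lay within 1.5-fold of each other. Parental means were more than 2-fold lower than silenced means for 175 of the 577, and more than 2-fold higher for 41. The strain not used for the choice thus leaned lower both ways. Its median log2 ratio to the strain used was -0.32 for the 279 tags and -0.63 for the 577. Tags had to reach the level limit only in the strain used, so the choice itself favours lower values in the other strain. The counts beyond 2-fold are therefore no measure of a strain difference, and they were not set against all locus tags.

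The check on FPKM scaling depended on the scaling used. As deposited, the median log2 fold change in limma was -0.059 over the members and -0.12 over all 9341 tested IDs. With the summed FPKM made equal in every library these values were -0.012 and -0.078. Median-of-ratios factors, computed over all IDs above 0 in every library, gave 0.076 and 0.0017, and upper-quartile factors gave -0.18 and -0.24. The direction of the members' median therefore turned with the scaling, and their count of higher silenced means was 28 as deposited, 35, 47 and 16 in this order. The members stayed 0.054 to 0.074 above the median of all tested IDs under each of these scalings. A library factor shifts all IDs nearly alike, so this gap was almost fixed in advance. Factors taken from the members' own geometric mean were 1.06 for parental replicate 1 and 0.979 to 0.998 for the other 5 libraries, close to 1 as the rule requires. Under them 5096 IDs passed the limma threshold, of which 45.8% were higher in the silenced strain, against 5118 and 44.5% as deposited. With median-of-ratios and upper-quartile factors that share was 52.0% and 37.2%. Calls among the members moved with the scaling too. Equal sums gave 2 higher (25.7% of the tested IDs), median-of-ratios factors 7 higher (28.2%), upper-quartile factors 4 lower (35.8%) and the members' own factors 2 higher (25%).

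Without parental replicate 1, the members' median log2 ratio of group means was 0.012 in place of -0.072, and with any other library left out it lay between -0.098 and -0.062. The slightly lower silenced level of the members thus rested on that library as well as on the scaling. In limma without it, 8 members were called higher (27.6% of the tested IDs were) and 4 lower (33.1%). Applied to the rescaled values, the rule gave 74 tags with equal sums, 66 with median-of-ratios and 55 with upper-quartile factors. These held 67, 56 and 52 of the 73 members, or 90.5%, 84.8% and 94.5% of each new set. Under these scalings and as deposited alike, 38 tags met the rule, among them all 8 of narrowest range but only 4 of the 10 most abundant.

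**Figure D5:**
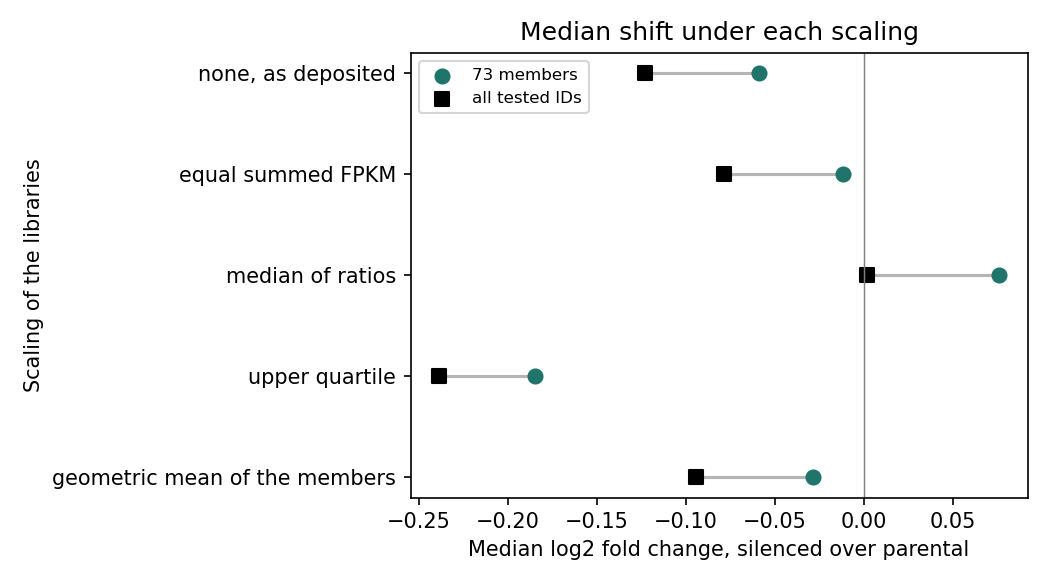
Median log2 fold change, silenced over parental (horizontal), of the 73 members (green circles) and of all tested IDs (black squares) under each scaling of the libraries. Both medians move together, from -0.18 and -0.24 with upper-quartile factors to 0.076 and 0.0017 with median-of-ratios factors. They must do so, because a library factor shifts all IDs nearly alike.

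The silenced gene was also expressed relative to the members, whose mean is level by the rule, so this adds no check on its ratio. POX_c04478 was 19.4%, 15.3% and 17.4% of the geometric mean of the 73 members in the parental libraries and 2.11%, 2.31% and 2.49% of it in the silenced ones. The silenced level was then 13.3% of the parental one, against 13.0% in FPKM as deposited. The geometric mean of the members was 778 ± 35.2 FPKM in the parental strain and 761 ± 7.51 FPKM in the silenced strain (SD, n = 3).

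The members were spread over the genome. The RefSeq table placed 71 of the 73 members on a chromosome, and they lay on all 8. Chromosome II held 14, I held 10 and IV held 9, V, VI and VIII held 8 each, and III and VII held 7 each. Chromosome VIII had 8 members among 17 abundant tags (47.1%) and chromosome I had 10 among 80 (12.5%), with the other 6 chromosomes between 15.1% and 24.2%. The genes adjoining a member, which the rule did not use, changed as often as others. Of 125 tested neighbours that were not members, limma called 30 higher and 39 lower, 55.2%. Of the 8468 tested locus tags it called 2169 higher and 2544 lower, 55.7%. The median absolute log2 fold change of these neighbours was 0.55, against 0.65 for all tested locus tags.

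In 2 places members adjoined each other, and both involved genes of narrowest range. POX_d05517 and POX_d05518 lie side by side on chromosome IV, and their ratio was 0.380, 0.466 and 0.413 in the parental and 0.364, 0.410 and 0.356 in the silenced libraries. POX_a01253 adjoins POX_a01254 on chromosome I, at a ratio of 0.553, 0.598 and 0.557 in the parental and 0.556, 0.626 and 0.478 in the silenced libraries. On its other side, POX_a01254, the member of narrowest range, adjoined a gene that rose. POX_a01255 had 17.8, 29.7 and 15.6 FPKM in the parental and 134, 121 and 105 FPKM in the silenced libraries, a log2 fold change of 2.50 (limma adjusted p = 0.00039). Likewise POX_c04293, beside the member POX_c04294, rose from 13.8, 25.3 and 13.7 FPKM to 88.1, 89.2 and 75.5 FPKM (limma adjusted p = 0.00055). POX_f07457, beside the member POX_f07456, fell from 139, 88.7 and 108 FPKM to 29.4, 28.9 and 30.7 FPKM (limma adjusted p = 0.000345). These 3 neighbours were picked after their values were seen, as the 2 largest increases and the largest decrease. The labels give no strand-specific step, so it is unknown whether reads of overlapping neighbours were separated.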

How the data were processed

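The authors deposited 1 file per library with FPKM values for 10899 IDs, per the file headers. Per the submitters' processing notes, bcl2fastq and HISAT2 were used. Their versions, the counter, the build and its annotation are not given in the sources at hand. A prefix on the locus tags of parental replicate 2 was removed before joining. The members and lists were chosen with earlier results of these data known.

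IDs reaching 1 FPKM in 3 or more libraries were fitted with limma 3.58.1 under R 4.3.3. Values were taken as log2(FPKM + 1), the variance followed a trend, and the design had no block. Tests were two-sided, with Benjamini-Hochberg adjustment over all tested IDs and a threshold of 0.05. The fit was tested on simulated data, and the rule on a few rows made up for the purpose. Same-numbered libraries did not deviate together (r = 0.0014, 0.029 and 0.12), so numbers were not taken as pairs. Relative depth came from ratios of values between 0.15 and 1.2 FPKM, of which 455 of 5378 lay within 0.03 (log2) of the fitted ratios. The named members were the 10 most abundant, the 8 of narrowest range, the 5 highest and 5 lowest strain ratios and the 3 just inside each limit. The 3 tags just outside each limit, which are not members, were named too. Lists by product name and sequence features were planned but not used, as the reference table (RefSeq ASM172317v3) names neither. It served for chromosomes and neighbours, and 9718 tags matched.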

Additional observations from a re-analysis of the deposited data

How the results depend on the processing

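The number of members followed the limits: it was 149 and 37 at minima of 150 and 600 FPKM, and 18 and 166 at ranges of 1.3 and 2. With 1 library left out it was 73 to 128, the highest without parental replicate 1. The median log2 ratio was 0.063 with median-of-ratios and -0.20 with upper-quartile factors, -0.098 to 0.012 with 1 library left out, and -0.037 as a mean. The share keeping the range in the library left out was 81.6% pooled and 57.0% to 100% by library. The tags kept were the same 73 members each time, so the pooled share does not combine separate readings. Calls among members, 0 in the fit described, were 2 higher with equal sums, 7 higher with median-of-ratios factors, 4 lower with upper-quartile factors, 2 higher with the members' own factors, 1 lower with a filter at a mean of 5 FPKM and 2 lower with no variance trend. With 1 library left out, 0 to 8 were called higher and 0 to 4 lower; the 8 and 4 came without parental replicate 1, where 60.7% of the tested IDs were called. The cause of these moves was not tested. A replicate block left 0 members called and 4667 changed IDs in all, against 5118, and the changed IDs numbered 3603 to 5576 with 1 library left out. Of 416 values of the 26 named members under alternatives, 35 moved by more than the spread between replicates, all with median-of-ratios or upper-quartile factors. Changes of filter, the replicate block and the fit with no variance trend leave a log2 fold change as it is. Their values are among the 416 but could not move, so this count is no measure of robustness. The log2 fold change of POX_c04478 was -2.99 to -2.63 throughout and passed each time. Since the files hold no fragment numbers, the share of counting error in the spread is unknown.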
